A study of Mus musculus with 4 samples.

Results

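The immediate-early response genes described here are Fos, Fosb, Jun, Junb, Egr1, Egr2, Atf3, Ier2, Btg2 and Klf4, 10 of the 19938 genes measured in mouse mesothelium. Each was found as the row of the array table whose probe annotation gives its symbol and no other, and each of the 10 had 1 such row. RNA of visceral mesothelium, taken from the omentum, and of parietal mesothelium, teased from the skeletal muscle of the body wall, was hybridized to 4 Affymetrix Mouse Gene 1.0 ST arrays, 2 per tissue. Both groups came from untreated adult Wt1-cre;Rosa26ReYFP mice on a c57bl/6 background, in which a Cre driven by Wt1 turns on a yellow fluorescent reporter in mesothelial cells. The RNA was of native tissue, with no sort given in the sources used here, and the animals behind each array are not given, so p-values measure only the spread between these arrays. All values are log2 RMA signals, and a difference of 1 is a 2-fold difference in signal.

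Immediate-early genes are transcribed within minutes of a stimulus, from growth factors to stress, without new protein synthesis. Kinases of the MAP kinase pathways act on factors already bound at their promoters, such as SRF with its partners and CREB, and the products then switch on later genes or shut the response down. Their transcripts decay quickly, and the same genes are known to be induced when fresh tissue is cut or digested. In mesothelium and other epithelia they are known to accompany wounding and the response to growth factors.

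The defining markers of mesothelium were present, and all 11 of them had mean signals above the median of all genes, 7.73. Of these 11 limma called 6 higher in parietal mesothelium, among them Msln at -2.14 (adjusted p = 0.000174), and 1 higher in visceral mesothelium, Wt1, at 0.84 (adjusted p = 0.00363). Their summed linear signal was 47567 and 50113 on the visceral arrays against 76079 and 79727 on the parietal arrays. The tissues also held different amounts of RNA of other cell types. Of 12 skeletal muscle markers, 12 were higher in parietal mesothelium, with a summed linear signal of 66757 and 85200 on the parietal arrays against 1757 and 1802 on the visceral arrays. Of 12 macrophage markers, 10 were higher in visceral mesothelium, at 21727 and 22393 against 5647 and 6423, and of 7 mast cell markers 6 were higher there. B cell markers were called higher in visceral mesothelium for 4 of 7 genes and smooth muscle markers for 4 of 6, with 1 smooth muscle marker higher in parietal mesothelium. Called higher in parietal mesothelium were also 3 of 6 fibroblast markers and 2 of 8 endothelial markers. The endothelial list had a median difference, visceral minus parietal, of 0.00723. In such bulk samples, fewer cells of a type and less RNA per cell cannot be told apart. The arrays of a tissue also differed in Xist. This RNA, which silences an X chromosome in females, was at 11.46 and 10.91 on the arrays of replicate 1 and at 5.70 and 5.75 on those of replicate 2, visceral first. The Y-linked genes Eif2s3y, Kdm5d and Uty lay between 8.39 and 9.65 on all 4 arrays.

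Btg2 and Klf4 were called higher in parietal mesothelium by limma, and the other 8 genes did not pass the test. Both calls depended on the test and on the rows in the fit, as given below. A gene was called where limma, fitted over all 19938 genes, gave a Benjamini-Hochberg adjusted p below 0.05 and the fold reached 1.5. The 2 calls among 10 genes stand beside 9.60% of all genes called in either direction, with 4.39% called higher in parietal and 5.22% in visceral mesothelium. The arrays of the tissues did not overlap for 2 of the 10 genes, Btg2 and Klf4, whereas they did not overlap for 56.3% of all genes. The median difference of the 10 genes, visceral minus parietal, was -0.09, against 0.00150 over all genes.

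**Figure D1:**
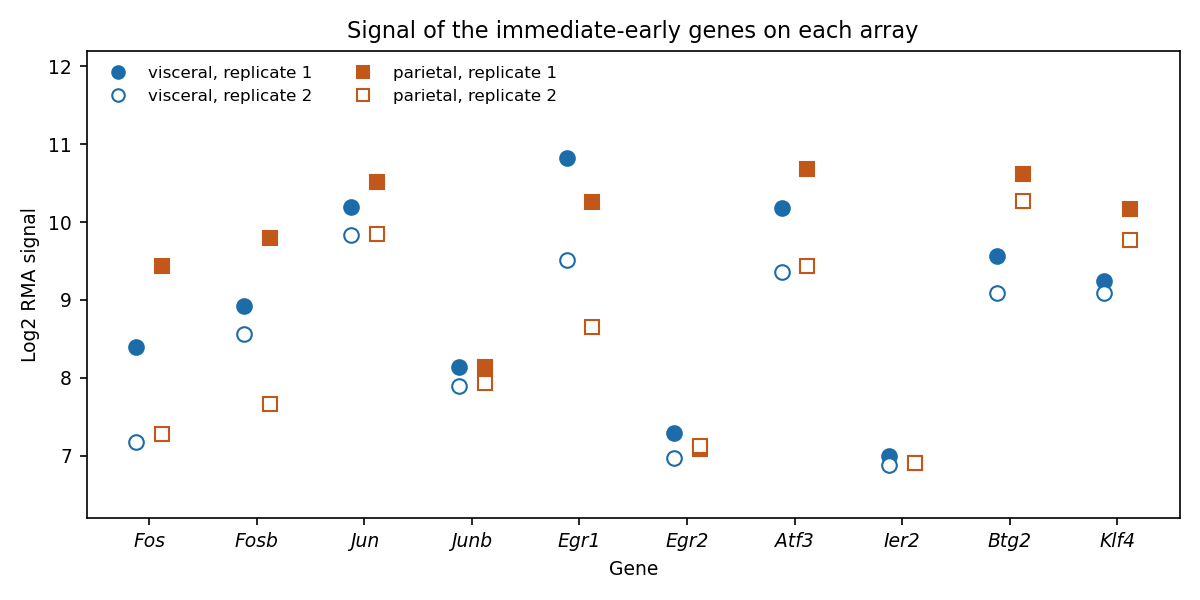
Log2 RMA signal (y axis) of the 10 genes (x axis) on each array. Circles are visceral arrays and squares parietal arrays, filled for replicate 1 and open for replicate 2. Only for Btg2 and Klf4 do both squares lie above both circles, and for the others except Egr2 both filled symbols lie above both open ones, with the widest gaps for Fos, Egr1 and Atf3.

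Btg2, an antiproliferative coregulator that also acts in mRNA decay, had signals of 9.56 and 9.09 on the visceral arrays and of 10.62 and 10.27 on the parietal arrays. Both parietal arrays lay above both visceral ones. Its parietal signal was 2.17-fold the visceral, which is a visceral minus parietal difference of -1.12 on the log2 scale (SE 0.19, 95% confidence interval -1.60 to -0.64, adjusted p = 0.0156 from limma). Within arrays of the same replicate number the difference was -1.06 and -1.18. Btg2 passed on leaving out any of the 4 arrays.

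Klf4, a zinc finger factor of epithelial differentiation and barrier formation, had signals of 9.24 and 9.09 on the visceral arrays and of 10.17 and 9.77 on the parietal arrays. Its arrays were again separated by tissue, although less widely. Its parietal signal was 1.75-fold the visceral, a difference of -0.81 (SE 0.15, interval -1.17 to -0.44, adjusted p = 0.0194 from limma). Without visceral replicate 1 the adjusted p from limma was 0.0570, and without visceral replicate 2 it was 0.0931. With all rows of the table in the fit, named or not, neither gene passed, with adjusted p from limma of 0.0531 for Btg2 and 0.0602 for Klf4. A pooled t-test, standing in for the one-way ANOVA of the study's methods, also called neither. Its p was 0.0627 for Btg2 and 0.0614 for Klf4, and 0.278 and 0.276 after adjustment. Called higher in parietal mesothelium, like both genes, were 12 of 12 skeletal muscle, 6 of 11 mesothelial, 3 of 6 fibroblast and 2 of 8 endothelial markers. Of these lists only that of skeletal muscle was called as a whole. The median difference of the endothelial markers, visceral minus parietal, was 0.00723. The mesothelial marker Wt1 was called higher in visceral mesothelium, at 0.84. The fibroblast markers Dcn and Pdgfra were higher there by 0.19 and 0.14, without a call. Those called higher in parietal mesothelium were Col1a2 at -0.85, Col1a1 at -0.82 and Lum at -0.72. The summed linear signal of the fibroblast markers was 43564 and 44682 on the visceral arrays against 48371 and 55756 on the parietal arrays. The part of these cell types in the differences of Btg2 and Klf4 was not tested.

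The genes nearest to the mean profile of Btg2 and Klf4 over the 4 arrays, each centred on its own mean, were P4ha2, Pmepa1, Uck2, Slc25a35 and Pdgfa. Their Euclidean distances ran from 0.07 to 0.12, and all 5 were called higher in parietal mesothelium. P4ha2 modifies collagen prolines and Pdgfa is a growth factor ligand. The likeness rests on 4 arrays, and a small distance means only a similar tissue difference and a similar spread.

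The stretch of 250 bases before the transcription start, from RefSeq on GRCm38.p6, is shown for the 2 genes called between tissues by limma. It is also shown for 3, Fos, Fosb and Atf3, with wide differences between arrays of a tissue. A window was found for 8 of the 10 genes, with none for Egr1 and Ier2. Capitals mark the CREB core site TGACG read on either strand, the full site TGACGTCA, which holds the core site on both strands, and the TATA box TATAAA.
Btg2, chr1:134079156-134079405, minus strand: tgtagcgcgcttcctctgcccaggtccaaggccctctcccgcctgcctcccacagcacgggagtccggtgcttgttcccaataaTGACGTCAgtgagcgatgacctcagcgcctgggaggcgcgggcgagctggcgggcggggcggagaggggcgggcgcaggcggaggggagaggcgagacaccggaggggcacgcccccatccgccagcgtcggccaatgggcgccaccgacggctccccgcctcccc
Klf4, chr4:55532476-55532725, minus strand: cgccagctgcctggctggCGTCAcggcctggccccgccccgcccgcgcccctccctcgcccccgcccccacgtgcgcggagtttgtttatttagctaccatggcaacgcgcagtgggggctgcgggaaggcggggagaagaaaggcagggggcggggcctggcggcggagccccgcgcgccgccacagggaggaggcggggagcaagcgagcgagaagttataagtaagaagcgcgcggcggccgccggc
Fos, chr12:85473640-85473889, plus strand: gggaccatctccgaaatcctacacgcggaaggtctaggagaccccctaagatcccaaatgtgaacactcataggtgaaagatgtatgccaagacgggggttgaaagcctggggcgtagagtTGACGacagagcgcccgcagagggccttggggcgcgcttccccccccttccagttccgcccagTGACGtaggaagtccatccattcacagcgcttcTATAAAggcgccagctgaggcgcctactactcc
Fosb, chr7:19310046-19310295, minus strand: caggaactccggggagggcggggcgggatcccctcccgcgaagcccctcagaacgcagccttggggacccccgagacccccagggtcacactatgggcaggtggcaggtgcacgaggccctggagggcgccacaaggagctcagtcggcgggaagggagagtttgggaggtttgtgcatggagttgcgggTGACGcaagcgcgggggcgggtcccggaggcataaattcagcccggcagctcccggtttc
Atf3, chr1:191183334-191183583, minus strand: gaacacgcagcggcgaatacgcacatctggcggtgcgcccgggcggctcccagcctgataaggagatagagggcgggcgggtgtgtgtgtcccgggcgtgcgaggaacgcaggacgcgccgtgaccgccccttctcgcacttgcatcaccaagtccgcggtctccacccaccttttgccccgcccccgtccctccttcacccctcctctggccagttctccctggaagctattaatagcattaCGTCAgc
Btg2 holds the full site at -166 to -159 counted from the start, a match found in 1.55% of all 32851 RefSeq windows of this length. Klf4 holds a core site at -232 to -228. Fos holds core sites at -129 to -125 and -66 to -62 and the TATA box at -33 to -28, Fosb a core site at -60 to -56, and Atf3 at -7 to -3. Of the 8 genes with a window 7 hold a core site, all but Jun, against 17.8% of all windows. The CArG box, which SRF recognizes, was found for Egr2 alone, in 4 of its 5 windows, against 1.47% of all windows. Numbered in the order of their starts, Egr2 windows 3, 4 and 5 overlap, and their box is the same genomic site. The shares of all windows count windows and not genes. The AP-1 site TGANTCA was found in none of the 8 genes and in 6.75% of all windows, and the GC box GGGCGG in 7 genes and in 32.7% of all windows. Both strands were searched, only within these 250 bases, and a match is a description of these letters. A site farther upstream, or one of Egr1 or Ier2, would be missed.

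The AP-1 subunits of the Fos family did not separate the tissues. Fos, which pairs with Jun proteins to form AP-1, had signals of 8.39 and 7.18 on the visceral arrays and of 9.43 and 7.27 on the parietal arrays. On both tissues replicate 1 was high and replicate 2 low, and the tissues overlapped. The tissue difference was -0.57 (SE 0.74, interval -2.41 to 1.27, adjusted p = 0.696 from limma). Fosb, a related subunit, had signals of 8.92 and 8.56 on the visceral arrays and of 9.79 and 7.67 on the parietal arrays. The parietal arrays held both the highest and the lowest of its 4 signals. Its tissue difference was 0.00792 (interval -1.60 to 1.61, adjusted p = 0.996 from limma), a sign that turned under each of the 3 other normalizations.

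A single array decided the sign of these values. Without parietal replicate 1, Fosb was called higher in visceral mesothelium, by 1.07 (adjusted p = 0.00616 from limma). Without parietal replicate 2 it was called higher in parietal mesothelium, at -1.06 (adjusted p = 0.00711), and so was Fos, at -1.65 (adjusted p = 0.0415). In these fits the tissue left with 1 array is assumed to vary like the other. Markers of adipocytes, cells that store fat, were high on the same parietal array, with Adipoq at 7.50 on parietal replicate 1 and at 5.96 to 5.99 on the other 3. Of 5 adipocyte markers limma called 0 between tissues, and 1 had an unadjusted p under 0.05, like 5408 of 19938 genes. The summed linear signal of these markers was 1234 on parietal replicate 1 against 698 to 731 on the others. Smooth muscle markers differed between the visceral arrays, with a summed linear signal of 9721 on replicate 1 and 6399 on replicate 2. On the parietal arrays it was 5833.5 and 7022. The part of either cell type in the signals of Fos and Fosb was not tested.

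The Jun subunits differed less between arrays. Jun, a partner of the Fos proteins, had signals of 10.19 and 9.84 on the visceral arrays and of 10.51 and 9.85 on the parietal arrays. The lower arrays of the tissues nearly coincided. Its tissue difference was -0.17 (interval -0.75 to 0.42, adjusted p = 0.721 from limma). Junb, which dampens some actions of Jun, had signals of 8.14 and 7.89 on the visceral arrays and of 8.13 and 7.93 on the parietal arrays, and a tissue difference of -0.01 (interval -0.32 to 0.30, adjusted p = 0.971 from limma). The interval of Junb leaves out any tissue difference above 0.32 in size, whereas that of Fos allows one of more than 2.

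**Figure D2:**
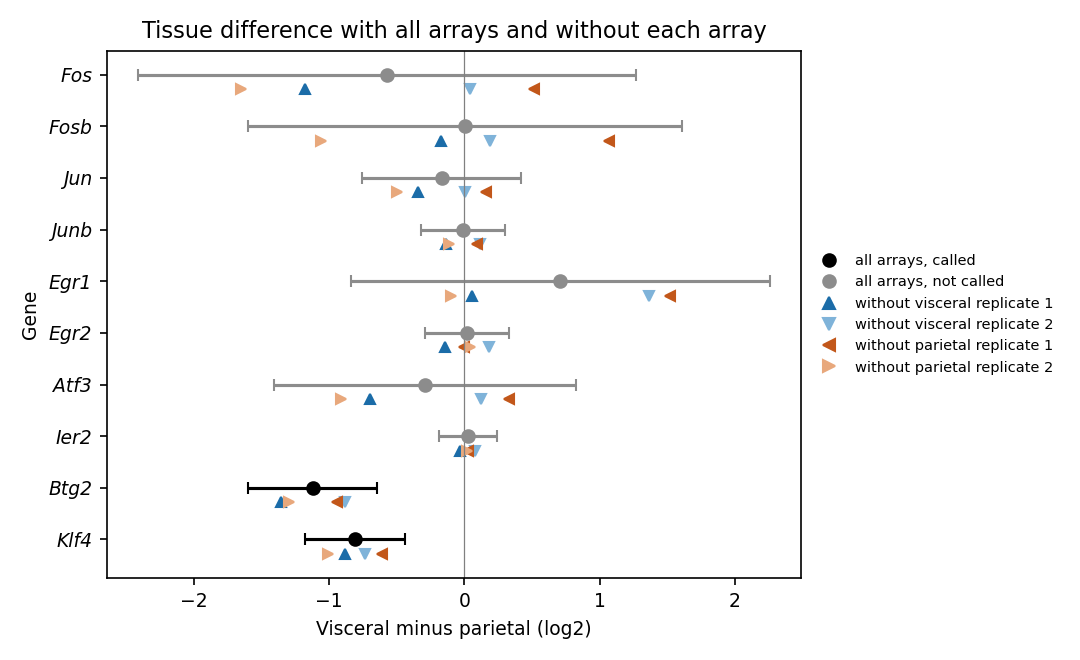
For the 10 genes (y axis), the visceral minus the parietal mean on the log2 scale (x axis), with 95% confidence intervals from limma on all 4 arrays, black where called and grey where not, and below each the value without 1 array (triangles). Btg2 and Klf4 stay to the left of 0 in all 4 cases, while the triangles of Fosb run from -1.06 to 1.07.

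Of the EGR zinc finger factors, Egr1, which binds GC-rich promoters, had signals of 10.82 and 9.51 on the visceral arrays and of 10.26 and 8.65 on the parietal arrays. The visceral array was the higher of each pair with the same replicate number, by 0.55 and 0.87, yet the tissues overlapped. With all arrays the tissue difference was 0.71 (SE 0.62, interval -0.84 to 2.26, adjusted p = 0.539 from limma). With the split by Xist, the same as that by replicate number, as a block, Egr1 was called higher in visceral mesothelium at the same 0.71 (adjusted p = 0.0128 from limma). Egr2, a factor of the same family, had signals of 7.29 and 6.97 on the visceral arrays and of 7.09 and 7.13 on the parietal arrays. Its mean lay under the median signal of all genes, and its tissue difference was 0.02 (interval -0.29 to 0.33, adjusted p = 0.950 from limma), of the opposite sign with arrays centred on their medians.

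Atf3, a stress-induced factor of the ATF and CREB family, had signals of 10.18 and 9.36 on the visceral arrays and of 10.68 and 9.44 on the parietal arrays. As for Fos, the arrays of replicate 1 were the higher in both tissues and the tissues overlapped. Its tissue difference was -0.29 (interval -1.41 to 0.83, adjusted p = 0.751 from limma). Ier2, a coregulator of the early response, had signals of 6.99 and 6.88 on the visceral arrays and of 6.91 and 6.90 on the parietal arrays. It lay under the median signal on this array type, like Egr2, and its difference was 0.03 (interval -0.19 to 0.24, adjusted p = 0.897 from limma).

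For most of the 10 genes the arrays of a tissue differed by more than the tissues did. In 7 of them, all but Ier2, Btg2 and Klf4, the difference between replicates exceeded the tissue difference in size in both tissues. The same held for 5516 of all 19938 genes. The median size of the difference between replicates was 0.36 in visceral and 0.53 in parietal mesothelium for the 10 genes, against 0.12 and 0.10 for all genes. Replicate 2 was the lower in both tissues for 9 of the 10 genes, all but Egr2, and for 29.4% of all genes. With 1 difference per tissue these values have no test.

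Fos, Egr1 and Atf3 were lower on replicate 2 by at least 0.5 in both tissues, a limit chosen after their values were seen and passed by 70 of all genes, or 0.351%. Egr1 differed by -1.31 in visceral and -1.62 in parietal mesothelium, 2.47-fold and 3.07-fold. Fos differed by -1.22 and -2.16, or 2.32-fold and 4.47-fold. Only Xist differed by more than Fos between the parietal arrays, and 8 genes in all, 2 of them Fos and Egr1, were lower on replicate 2 by at least 1 in both tissues. Atf3 differed by -0.82 and -1.24. Fosb showed its difference mainly in parietal mesothelium, at -2.13 against -0.36 in visceral mesothelium, ranks 3 and 1369 in size among the 19938 genes. The split of the arrays by replicate number was the same as that by Xist signal, and what else differed between the numbered arrays cannot be told apart from it.

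**Figure D3:**
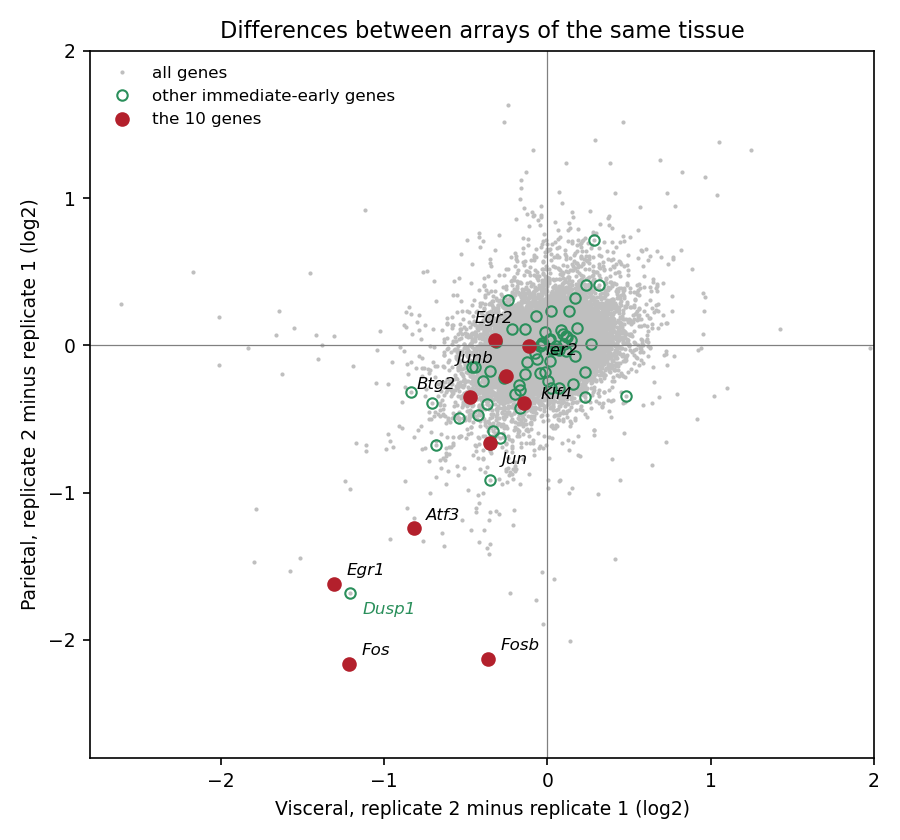
Log2 difference of replicate 2 minus replicate 1 in visceral (x axis) and in parietal mesothelium (y axis) for all genes (grey), 66 other immediate-early genes (green circles) and the 10 genes (red). Fos, Egr1, Atf3 and Dusp1 lie in the lower left, away from the mass of genes around 0, and 2 genes fall outside the axes.

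Across all 19938 genes, which are not independent replicates, the differences between replicates of the tissues correlated at r = 0.36. The genes nearest in centred profile to Fos were Snord14e, at a distance of 0.62, then Fbn2 at 0.71, Atf3 at 0.76, Fosb at 0.83 and Saa3 at 0.89. Atf3 and Fosb are both among the 5 genes nearest to Fos of the 19938 genes measured. The distance was not scaled, so only genes that differ widely between arrays can lie near Fos. This likeness too rests on 4 arrays. Snord14e is a small nucleolar RNA, Fbn2 a microfibril protein and Saa3 an acute phase protein.

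Of 68 other immediate-early genes 66 were measured, and limma called 5 of them, all higher in parietal mesothelium. That is 7.58%, against 9.60% of all genes. An unadjusted p under 0.05 from limma was found for 24 of the 66, and for 5408 of all 19938 genes. Of the 27 transcription factors 3 were called, with a median difference of -0.02. Nfkbiz, a regulator of NF-kappaB targets, had signals of 9.43 and 9.36 on the visceral arrays and of 10.15 and 10.35 on the parietal arrays, a difference of -0.85 (adjusted p = 0.00426 from limma). Id1, an inhibitor of helix-loop-helix factors, was at -0.76 (adjusted p = 0.00934), and Bhlhe40, a repressor tied to the clock, at -0.70 (adjusted p = 0.00974). For these 3 factors, as for Btg2 and Klf4, both parietal arrays lay above both visceral ones.

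Of the 39 effectors and secreted factors measured, 2 were called, with a median difference again of -0.02. Tob1, an antiproliferative protein of the same family as Btg2, had signals of 9.62 and 9.30 on the visceral arrays and of 10.66 and 10.69 on the parietal arrays. It was 2.32-fold higher in parietal mesothelium, at -1.21 (adjusted p = 0.00253 from limma). Ccn2, a matricellular protein also called connective tissue growth factor, was at -0.97 (adjusted p = 0.00392). Its relative Ccn1, named after its value was seen, was at -1.13 and missed the threshold (adjusted p = 0.0514).

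Dusp1, a phosphatase that switches MAP kinases off, was the other early gene with a difference between replicates of the size of those of Fos and Egr1. Its signals were 12.54 and 11.33 on the visceral arrays and 12.48 and 10.80 on the parietal arrays, and the tissues overlapped. It was lower on replicate 2 by 1.21 and 1.68, and its tissue difference was 0.29 (adjusted p = 0.825 from limma). Plk3, a stress-responsive kinase, was lower by 0.68 in both tissues, and these were the 2 of the 66 genes past the limit of 0.5. Of the 66 genes 27, or 40.9%, were lower on replicate 2 in both tissues, nearer to the 29.4% of all genes than the 9 of 10 above.

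Among genes that act before, on or beside the early genes, the share called was 6.25% for the upstream pathways, 4.76% for feedback and 8.33% for heat shock, against 9.60% of all genes. Of 32 genes measured from the MAP kinase, SRF and CREB pathways limma called 1 in each direction, and the median difference was 0.15. Pdgfrb, a receptor for platelet-derived growth factors, was higher in visceral mesothelium by 1.02 (adjusted p = 0.00118), and Map3k5, a kinase of stress signalling, was at -0.80 (adjusted p = 0.00764). Of 21 genes that feed back on the response 1 was called, the MAP kinase phosphatase Dusp10, at -0.85 (adjusted p = 0.0119), and 12, or 57.1%, were lower on replicate 2 in both tissues. Of 12 heat shock genes 1 was called, the heme-degrading enzyme Hmox1, higher in visceral mesothelium by 0.68 (adjusted p = 0.00579), and 7, or 58.3%, were lower on replicate 2 in both tissues. Of all genes 29.4% were.

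**Figure D4:**
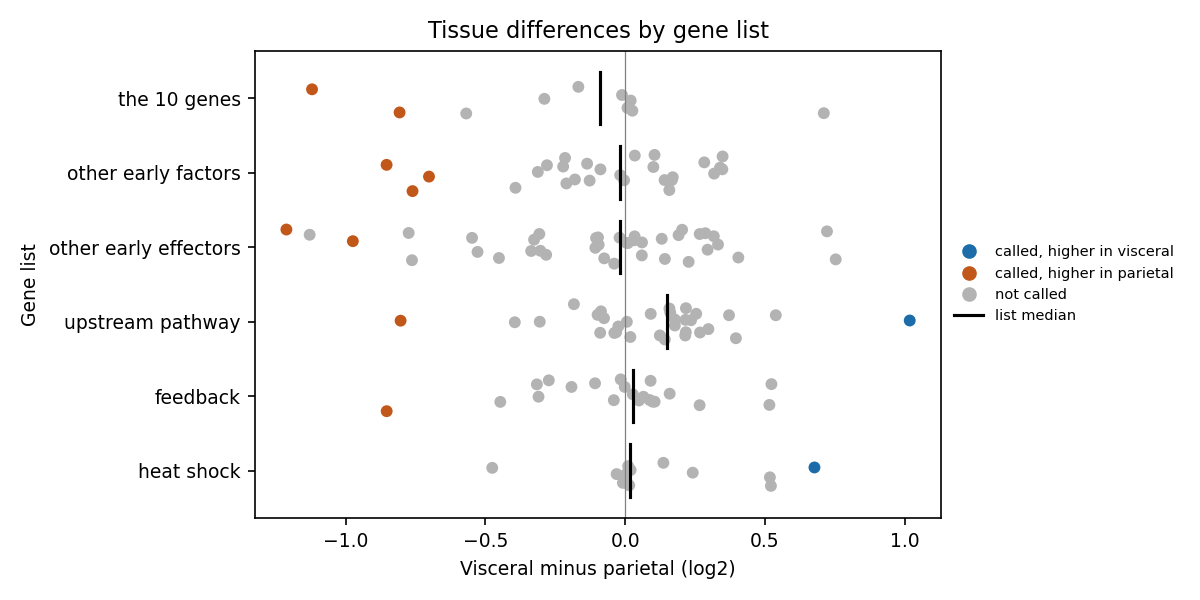
For each measured gene of 6 lists (y axis), the visceral minus the parietal mean on the log2 scale (x axis), coloured where called by limma, with the list median as a black line. The 7 called genes of the 3 immediate-early lists all lie to the left of 0, and the list medians lie between -0.09 and 0.15. Of all genes limma called 9.60% in either direction.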

How the data were processed

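RNA of 2 visceral and 2 parietal mesothelium samples was hybridized to 1-colour arrays. The deposited values are log2 signals that the authors made by RMA in Partek 6.6, which corrects background, normalizes quantiles across arrays and summarizes probes. The probe library version is not given in the sources used here. Array medians ran from 7.38 to 7.41, and the number of arrays limits the precision.

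Of 35556 rows, 21789 had 1 gene symbol in the platform annotation, 1621 several and 12146 none. For 999 genes with more rows the row with the highest mean was kept, leaving 19938 genes. Tissues were compared with limma 3.58.1 (lmFit, eBayes) in R 4.3.3 over all genes, with Benjamini-Hochberg adjustment, and genes were called where the adjusted p was below 0.05 and the fold 1.5 or more, as in the study's methods. The code was tested on simulated data. No sample was dropped or imputed.

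The genes and lists were chosen with earlier results of these data known. Named are the 10 genes, of each other list up to 4 called genes per direction with the lowest adjusted p, of marker lists up to 3 genes, and the 5 nearest profiles. Genes outside this rule are Dusp1, Plk3, Ccn1, Wt1, Dcn, Pdgfra, Adipoq, Xist, the Y-linked genes and those of the closing section. Alternatives were other tests, thresholds, variance priors, normalizations, feature sets and filters, the replicate number as a block, and the fit without each array in turn.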

Additional observations from a re-analysis of the deposited data

How the results depend on the processing

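An unadjusted p under 0.05 from limma was found for 2 of the 10 genes and for 5408 of all 19938 genes. Limma called 2 of the 10 genes higher in parietal and 0 in visceral mesothelium. The parietal count was 0 with all rows in the fit, 0 by the pooled t-test with or without adjustment, and 1 at a fold of at least 2. Of the other immediate-early genes 5 were higher in parietal mesothelium, against 1 at a fold of at least 2, and without a fold threshold 3 were called in visceral mesothelium. Over all genes limma called 875 and 1040 (parietal first), against 457 and 521 at a fold of at least 2. The pooled t-test called 0 and 0 after adjustment and passed 706 and 876 without it. Without a fold threshold limma called 1574 in visceral mesothelium. The labels do not say that replicate numbers pair the arrays. With the replicate block, 1 of the 10 genes, Egr1, was called in visceral mesothelium (adjusted p = 0.0128 from limma). Btg2 and Klf4 stayed called in parietal mesothelium. Of the other immediate-early genes 8 and 2 were called (parietal first). The block costs a degree of freedom, and the share of all genes called under it is not given here, so these counts have no background. Leaving out each array gave 1 to 4 of the 10 genes in parietal and 0 to 1 in visceral mesothelium, 5 to 8 and 0 to 2 of the other immediate-early genes, and 741 to 954 and 955 to 1141 of all genes. Without 1 array the difference ran from -1.65 to 0.51 for Fos, -1.06 to 1.07 for Fosb, -0.50 to 0.16 for Jun, -0.14 to 0.11 for Junb, -0.10 to 1.52 for Egr1, -0.14 to 0.18 for Egr2, -0.91 to 0.33 for Atf3 and -0.031 to 0.082 for Ier2. Fosb also changed sign with quantile normalization (-0.022), arrays centred on their medians (-0.012) and cyclic loess (-0.037), and Egr2 with arrays centred on their medians (-0.00064). Btg2 and Klf4 kept their direction under every alternative run, from -1.36 to -0.88 and from -1.0 to -0.61. Egr2 and Ier2 have no value among genes above the median signal. The cause of these changes was not tested.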

Other observations

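Other genes shared the split of the arrays by replicate number, and they are named here after their values were seen, with no test. Among those lower on replicate 2 in both tissues were 5 that encode enzymes of sterol synthesis, picked from the largest differences, and the other enzymes of that pathway were not examined as a list. Sqle, squalene epoxidase, was at 9.29 and 7.49 on visceral replicates 1 and 2 and at 8.75 and 7.28 on the parietal ones. Idi1, which isomerizes isopentenyl diphosphate, differed by -1.58 in visceral and -1.53 in parietal mesothelium, ranked next after Xist by the smaller of the values of both tissues. Msmo1 differed by -1.78 and -1.11, Cyp51 by -1.21 and -0.98, and Hmgcs1 by -1.24 and -0.92.

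In the other direction, Nr1d1 and Nr1d2, repressors of the circadian clock, were higher on replicate 2, by 1.05 and 0.97 in visceral and by 1.38 and 1.14 in parietal mesothelium. So were Zbtb16, a zinc finger factor, by 1.25 and 1.32 (visceral first), Fkbp5, a target of the glucocorticoid receptor, by 0.82 and 1.17, and Pdk4, a kinase that restrains glucose oxidation, by 0.73 and 1.04. Of these 10 genes limma called 1 between the tissues, Pdk4, higher in parietal mesothelium at -1.66 (adjusted p = 0.0426). What set the numbered arrays apart was not tested.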
